A study of Mus musculus with 19 samples.

Results

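The genes described here are 9 genes of megakaryocytes and platelets: Pf4, Ppbp, Itga2b, Gp1ba, Gp1bb, Gp5, Gp6, Gp9 and Clec1b. They were taken by gene name from the 36682 genes of the deposited table, and all 9 were present and passed the filter on low counts. RNA was sequenced from dorsal root ganglia, which hold the cell bodies of sensory neurons, with ganglia L3 to L5 of the side of the operated knee pooled for each mouse. All 19 mice were male and homozygous for the MaFIA transgene (macrophage Fas-induced apoptosis), which lets the dimerizing drug AP20187 trigger death of cells that express it. In this strain the transgene is driven by the Csf1r promoter, which is active in macrophages and other myeloid cells, so vehicle mice carried it too. The 4 groups were naive mice with vehicle (n = 5), naive mice with AP20187 (n = 4), mice 8 weeks after destabilization of the medial meniscus (DMM, a surgical model of knee osteoarthritis) with vehicle (n = 5), and DMM mice with AP20187 (n = 5). AP20187 or vehicle was injected into the peritoneum once daily for 5 days, and naive mice were matched to the others by age. Each library is 1 mouse and is named below by its group and mouse number.

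Megakaryocytes are the large marrow cells that shed platelets, and platelets carry megakaryocyte RNA although they have no nucleus. Itga2b encodes integrin αIIb, which pairs with the β3 chain to bind fibrinogen. Gp1ba, Gp1bb, Gp5 and Gp9 encode the chains of the GPIb-IX-V receptor for von Willebrand factor, Gp6 the platelet collagen receptor and Clec1b the podoplanin receptor CLEC-2. Pf4 and Ppbp encode the chemokines platelet factor 4 and pro-platelet basic protein, which are stored in platelet alpha granules. Most of these genes are used as markers of the lineage, but mouse tissue macrophages can also transcribe Pf4.

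Library totals ran from 60984830 to 74691396 counts. Summed sensory neuron markers stood at 1222 to 7501 CPM (the count scaled to a common library size, with TMM factors) over the 19 libraries, so the labelled tissue was present in each. One vehicle library, DMM vehicle 64, stood apart in the genes described here. It was among the 3 highest of 19 libraries for 8 of the 9 genes, while the other 4 vehicle mice of its group were low. Among the platelet genes without a library at 3 counts or fewer (all but Gp1bb), its CPM was 4.44 to 9.65 times the median of those 4 mice. It also had the highest sum of erythroid markers, at 26815 CPM, and of early B lineage markers, at 35.5 CPM. Counts of genes that passed in DMM mice are given with and without it, and those in naive mice where they moved.

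In the build of the deposited annotation (GRCm39, per the submitters' processing notes), Ppbp (ENSMUSG00000029372) and Pf4 (ENSMUSG00000029373) are neighbours on the plus strand of chromosome 5. Ppbp spans 90916377 to 90917922 and Pf4 spans 90920294 to 90921242, with 2371 bases between them. Itga2b (ENSMUSG00000034664) lies on the minus strand of chromosome 11 from 102344123 to 102360948, and Gp1ba (ENSMUSG00000050675) on the plus strand of the same chromosome from 70529948 to 70532862. Gp9 (ENSMUSG00000030054) spans 87755054 to 87756750 and Clec1b (ENSMUSG00000030159) spans 129374260 to 129386298, both on the plus strand of chromosome 6. Gp5 (ENSMUSG00000047953) spans 30126503 to 30129597 on the minus strand of chromosome 16, and Gp6 (ENSMUSG00000078810) spans 4366964 to 4400743 on the minus strand of chromosome 7. Gp1bb (ENSMUSG00000050761) spans 18439067 to 18441153 on the minus strand of chromosome 16, and 1902 of its 2087 bases are shared with Septin5 on the same strand. Its counts are therefore uncertain. Clec1b overlaps Clec9a on the same strand, and Gp6 overlaps 2 entries with no gene symbol.

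Promoters of this lineage are known for GATA and ETS motifs, the letters bound by GATA-1 and by factors such as FLI1. All 9 genes were matched in the RefSeq promoter table of build GRCm38.p6, which gives 250 bases before to 50 bases after each start. The 250 bases before the start are shown, 5′ to 3′ on the gene's strand, for the 2 genes that passed the test in DMM mice and for the chemokine pair. Capitals mark a GATA motif (AGATAA and the variant AGATAG, or TGATAA and the variant TGATAG) or an ETS motif (AGGAAG or CGGAAG), on either strand.
Itga2b, minus strand, chr11:102469884-102470133: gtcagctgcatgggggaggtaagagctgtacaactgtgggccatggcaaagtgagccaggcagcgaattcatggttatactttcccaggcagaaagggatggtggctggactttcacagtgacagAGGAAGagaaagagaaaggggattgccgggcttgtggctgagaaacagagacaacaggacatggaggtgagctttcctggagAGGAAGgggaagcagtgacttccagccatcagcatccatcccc
Gp1ba, plus strand, chr11:70638872-70639121: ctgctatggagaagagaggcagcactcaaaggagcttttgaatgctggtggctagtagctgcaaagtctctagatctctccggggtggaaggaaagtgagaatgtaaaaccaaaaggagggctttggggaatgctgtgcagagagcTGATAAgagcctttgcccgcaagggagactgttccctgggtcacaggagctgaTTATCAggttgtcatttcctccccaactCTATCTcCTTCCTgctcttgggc
Pf4, plus strand, chr5:90772185-90772434: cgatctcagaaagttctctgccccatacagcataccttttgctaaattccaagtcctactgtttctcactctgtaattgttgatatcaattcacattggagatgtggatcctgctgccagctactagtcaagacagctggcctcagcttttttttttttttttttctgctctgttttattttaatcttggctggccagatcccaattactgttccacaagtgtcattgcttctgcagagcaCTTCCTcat
Ppbp, plus strand, chr5:90768268-90768517: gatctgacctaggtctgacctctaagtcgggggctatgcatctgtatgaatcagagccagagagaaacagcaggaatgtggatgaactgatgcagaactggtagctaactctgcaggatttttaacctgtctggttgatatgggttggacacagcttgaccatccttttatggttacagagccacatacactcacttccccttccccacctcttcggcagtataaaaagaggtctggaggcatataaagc
Upstream of Gp1ba there were 3 GATA motifs, and its single ETS motif ended 11 bases before the start. Itga2b had 2 ETS motifs and no GATA motif in these letters, Pf4 had 1 ETS motif upstream and 1 GATA motif after the start, and Ppbp had neither in its whole window. Over the 9 genes, 6 held a GATA motif, 6 held an ETS motif and 4 (Pf4, Gp1ba, Gp1bb and Gp5) held both. Of 32851 promoter windows of the same length in the table, 29.8% held a GATA motif, 46.5% an ETS motif and 12.6% both. These matches describe letters only.

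On the authors' FPKM, which scale fragments to gene length, Ppbp and Pf4 were the highest of the 9 genes in 19 of 19 libraries. In DMM mice with AP20187, mean FPKM was 68.2 ± 50.4 (SD, n = 5) for Ppbp and 30.8 ± 14.2 for Pf4. Itga2b followed at 9.77 ± 4.54 and Gp9 at 6.07 ± 3.75, and the other 5 genes had means between 0.385 and 1.88. Naive vehicle mice had the same leading order at lower levels, with 14.1 ± 10.6 for Ppbp (SD, n = 5), 8.34 ± 4.59 for Pf4, 2.4 ± 1.19 for Itga2b and 1.57 ± 0.979 for Gp9. Over all 19 libraries, Ppbp exceeded Pf4 in 16 and Itga2b exceeded Gp9 in 18. Gp9 exceeded Gp5 in 17. The next neighbours changed places between libraries, with Gp5 above Gp1ba in 9 of 19 and Gp1ba above Clec1b in 11 of 19. Clec1b exceeded Gp6 in 16, and Gp6 exceeded Gp1bb in 16. Gp6 and Gp1bb had the lowest means, at 0.383 and 0.284 FPKM over the 19 libraries.

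The first question was what AP20187 did to these transcripts in DMM mice. All 9 genes had higher fitted levels with AP20187 than with vehicle, with a median log2 fold change of 1.38 (0.83 to 1.78) against -0.10 over all 22778 genes tested. Itga2b and Gp1ba rose, and the other 7 did not pass the test, an adjusted p under 0.05 by edgeR's quasi-likelihood test. That is 2 of 9, beside 23.8% of all genes tested that passed in either direction and 11.3% that passed as higher, so the share is near that of all genes. Fitted levels were higher for 9 of 9, beside 44.7% of all genes. At an unadjusted p under 0.05 there were 4 of the 9, beside 37.3% of all genes. With 1 library left out at a time, the number that passed was 1 to 3, except that it was 8 without DMM vehicle 64. In bulk tissue, more cells or platelets of the lineage and more RNA in each cannot be told apart.

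Itga2b, the integrin chain, stood at 90.5, 39.5, 39.1, 35.2 and 69.7 CPM in DMM mice 58 to 62 with AP20187. In DMM vehicle mice 32, 33, 34, 63 and 64 it stood at 5.13, 8.63, 8.84, 12.2 and 45.2 CPM. The first 4 vehicle mice were below every AP20187 mouse, while vehicle 64 was above 3 of the 5. The difference was 1.78 on the log2 scale (SE 0.48) with an adjusted p of 0.0149, and the call held in all 19 fits that each left out 1 library. Without vehicle 64 it was 2.66 (SE 0.37), adjusted p = 1.16e-04. With the vehicle group restricted to mice 63 and 64 the call was lost, at an adjusted p of 0.343.

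Gp1ba, the von Willebrand factor-binding chain, was at 6.4, 5.02, 3.28, 2.34 and 9.7 CPM with AP20187 and at 0.971, 2.06, 0.726, 1.1 and 5.03 CPM with vehicle, in the same order of mice. Again vehicle 64 alone overlapped the AP20187 group. Its log2 difference was 1.43 (SE 0.50), with an adjusted p of 0.0454 that ran from 0.00226 to 0.129 when each library was left out in turn. The call held in 5 of those 19 fits (without DMM AP20187 mouse 60 or 61, DMM vehicle 64, or naive vehicle mouse 3 or 4) and was lost without any of the others, naive mice included, which enter through the shared spread. Without vehicle 64 the log2 fold change was 2.14 (SE 0.45), adjusted p = 0.00226.

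The other chains of the same receptor did not pass. Gp9, which the complex needs to reach the cell surface, was at 8.03, 2.34, 2.76, 4.01 and 10.9 CPM with AP20187 and at 0.0617, 0.597, 0.953, 1.71 and 7.48 CPM with vehicle. Its lowest value came from 4 counts in vehicle 32. For Gp9 the log2 fold change, 1.38 (SE 0.75), had an adjusted p of 0.196. Gp5 was at 6.91, 4.15, 3.43, 1.11 and 3.94 CPM with AP20187 and at 0.123, 1.51, 0.424, 1.19 and 7.76 CPM with vehicle, where mouse 64 was the highest of all 19 libraries. Here the fitted log2 fold change came to 0.83 (SE 0.70, adjusted p = 0.428). Gp1bb, the chain whose gene overlaps Septin5, was at 1.82, 0.336, 0.336, 0.449 and 1.29 CPM with AP20187 and at 0.0308, 0.0448, 0.0303, 0.604 and 1.63 CPM with vehicle. Vehicle 32, 33 and 34 among those vehicle libraries held 3 counts or fewer, which is at the floor of detection. Gp1bb had a log2 difference of 0.85 (SE 0.92, adjusted p = 0.55). For each of these 3 chains the groups overlapped, at vehicle 64 and, for Gp5 and Gp1bb, at other mice too.

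Septin5, a neuronal gene that is transcribed just upstream of Gp1bb and can read through into it, went the other way and fell by 0.57 on the log2 scale (SE 0.20, adjusted p = 0.0484) in DMM mice with AP20187. The call held in 6 of 19 fits that each left out 1 library, with an adjusted p of 0.0124 to 0.124, and in 7 of 11 other alternatives. Gp1bb counts were 0.0126% to 1.77% of Septin5 counts in a library. How many of the Gp1bb counts came from Septin5 transcripts was not tested.

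Among the signalling receptors, Clec1b was at 16.9, 5.12, 6.32, 6.32 and 12 CPM with AP20187 and at 0.355, 1.9, 1.36, 3.2 and 7.23 CPM with vehicle. Vehicle 64 lay inside the AP20187 range and the other 4 vehicle mice below it. The fitted difference was 1.73 on the log2 scale (SE 0.64), adjusted p = 0.0558. Gp6, the collagen receptor, was at 8.12, 2.92, 1.97, 1.42 and 5.72 CPM with AP20187 and at 0.617, 1.27, 0.817, 1.31 and 5.05 CPM with vehicle. The same vehicle mouse overlapped. The log2 fold change of 1.15 (SE 0.55) had an adjusted p of 0.138.

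The granule chemokines followed the same layout. Ppbp was at 160, 42.2, 39.8, 40.1 and 95.5 CPM with AP20187 and at 2.1, 12.8, 7.55, 21.4 and 94.4 CPM with vehicle, where vehicle 64 was above 3 of the 5 AP20187 mice. The log2 difference of 1.45 (SE 0.73) had an adjusted p of 0.158. Pf4 was at 38, 20.8, 18.7, 12.2 and 23.8 CPM with AP20187 and at 5.21, 3.98, 3.72, 10.8 and 29.3 CPM with vehicle, with mouse 64 second highest of all libraries. For Pf4 the log2 difference of 1.10 (SE 0.52) had an adjusted p of 0.132.

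**Figure D1:**
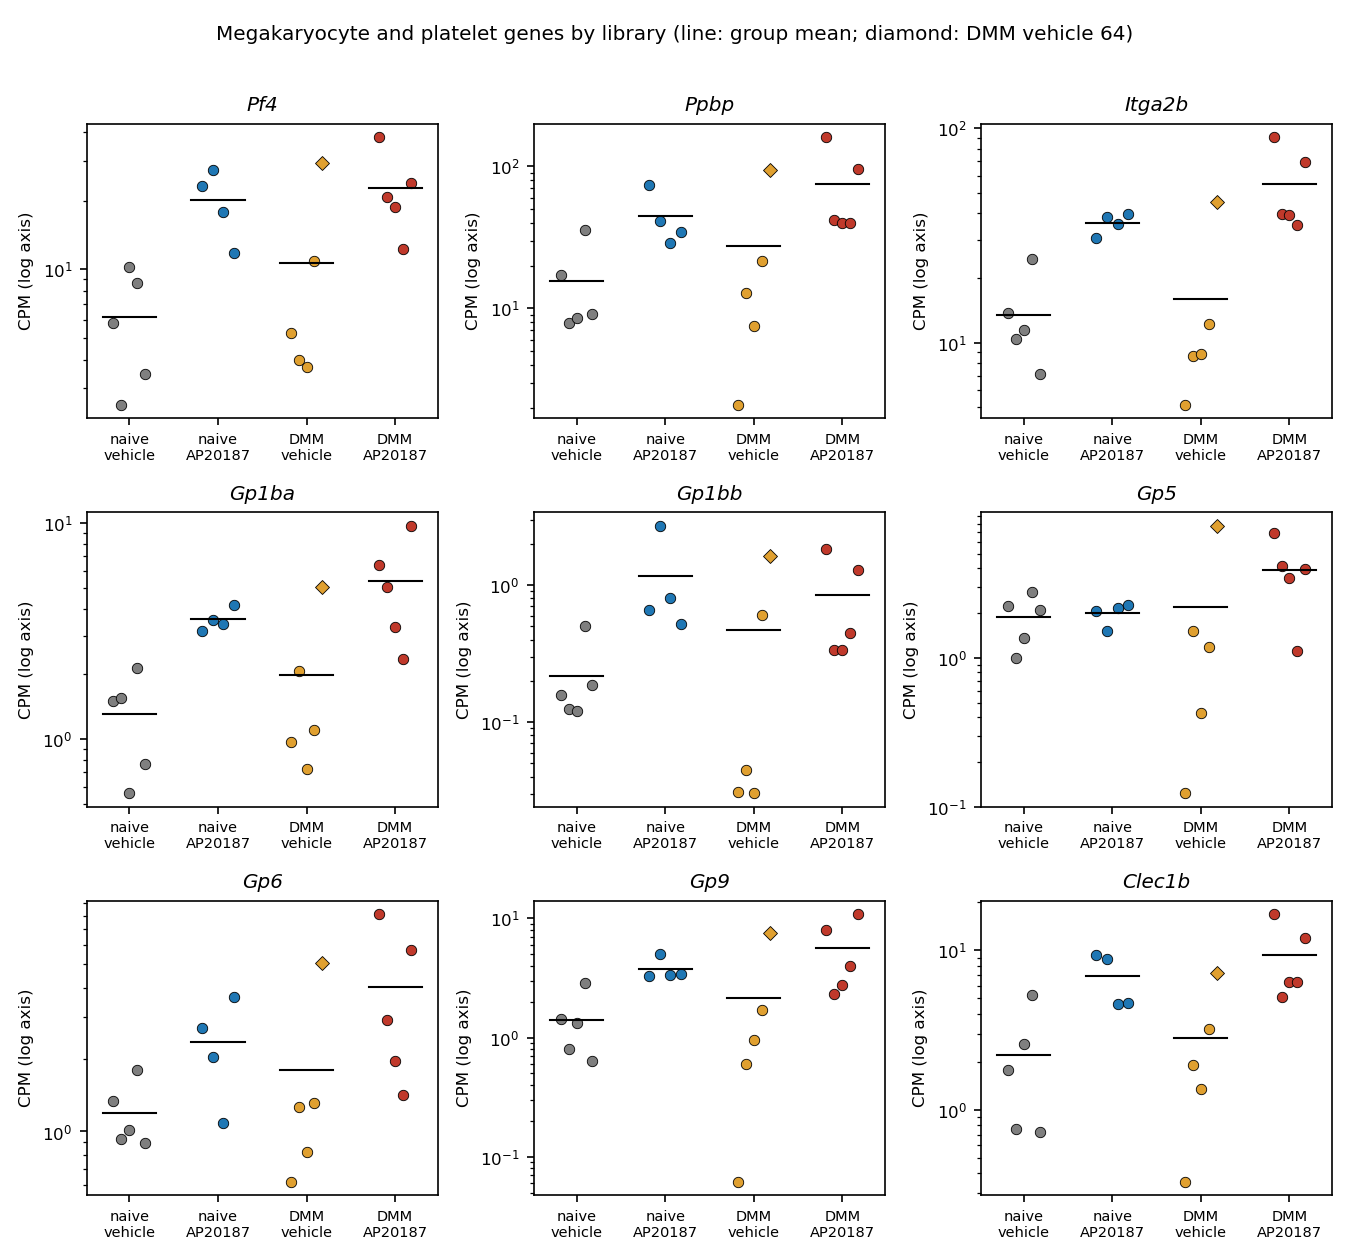
CPM of the 9 genes (log axis, 1 panel a gene) in each library of the 4 groups, with the group mean as a line and DMM vehicle 64 as a diamond. The diamond lies within or above the range of the DMM AP20187 libraries in every panel, for example at 45.2 CPM of Itga2b, while the other 4 DMM vehicle mice run from 5.13 to 12.2 CPM.

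No gene separated the 2 DMM groups completely, beside 8.71% of all genes tested whose AP20187 libraries were all above the vehicle libraries. DMM vehicle 64 was singled out because it was high in these same genes, so leaving it out raises their differences and their separation by construction, and the values without it are a description. Without it there were 7 of 9 (all but Gp1bb and Gp5), beside 13.8% of all genes. In the fit without that library, 8 of 9 passed the test, beside 34% of all genes. Their log2 fold changes were 1.93 for Pf4 (adjusted p = 0.00369), 2.79 for Ppbp (0.00406), 2.66 for Itga2b, 2.14 for Gp1ba, 2.26 for Gp5 (0.00722), 2.00 for Gp6 (0.00565), 2.75 for Gp9 (0.00565) and 2.45 for Clec1b (0.00757). Gp1bb reached a log2 difference of 2.24 and an adjusted p of 0.0691. The DMM vehicle mice are numbered 32 to 34, 63 and 64 and the DMM AP20187 mice 58 to 62, and the labels do not say whether the numbers mark cohorts, so a cohort and the drug cannot be told apart for mice 32 to 34. Summed over the 9 genes, vehicle mice 32, 33 and 34 had 14.6, 32.7 and 24.4 CPM, mouse 63 had 53.6 CPM and mouse 64 had 203 CPM. On this sum mice 63 and 64 were both above mice 32 to 34, and a part of cohort was not tested. With the vehicle group restricted to mice 32 to 34, all 9 passed, beside 36.3% of all genes. Restricted to mice 63 and 64, of which 1 is the high mouse, 0 did, beside 4.73%, and the differences themselves were smaller. They were then 0.92 for Itga2b (SE 0.51), 0.84 for Clec1b (SE 0.69), 0.77 for Gp1ba (SE 0.62), 0.37 for Ppbp (SE 0.70), 0.33 for Gp6 (SE 0.65), 0.25 for Gp9 (SE 0.65), 0.18 for Pf4 (SE 0.53), -0.21 for Gp5 (SE 0.63) and -0.42 for Gp1bb (SE 0.83) on the log2 scale.

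In naive mice the same drug comparison gave higher fitted levels for all 9 genes again, with a median log2 fold change of 1.46 (0.08 to 2.43) against -0.07 over all genes. None passed edgeR's quasi-likelihood test at an adjusted p under 0.05, beside 11.2% of all genes tested in either direction and 8.61% as higher. Unadjusted p were under 0.05 for 5 of the 9, beside 28.8% of all genes, and DESeq2 called 3, beside 19.1%. The edgeR fit without DMM vehicle 64, which enters through the shared spread, called 3 (Pf4, Itga2b and Gp1ba), beside 14.1% of all genes. Leaving out any other library gave 0 to 2. Of all genes called in naive mice, 77% were higher with AP20187, against 62.9% when library size alone was used for scaling and 39.6% and 39.8% with limma on log2(FPKM + 1) and log2(FPKM + 0.1). On the last of these scales all genes together had a median difference of -0.21 (log2). For 5 of the 9 genes (Pf4, Itga2b, Gp1ba, Gp1bb and Gp9) every AP20187 mouse was above every vehicle mouse, beside 9.39% of all genes.

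Itga2b was at 30.7, 38.5, 35.8 and 39.9 CPM in naive AP20187 mice 1, 3, 4 and 5, and at 13.7, 10.4, 11.5, 24.4 and 7.12 CPM in naive vehicle mice 1 to 5. The groups did not overlap, and the AP20187 mice differed among themselves by 1.3-fold. The fitted difference was 1.43 on the log2 scale (SE 0.50), adjusted p = 0.0704. Pf4 was at 23.3, 27.3, 17.9 and 11.8 CPM with AP20187 and at 5.77, 2.53, 10.2, 8.71 and 3.46 CPM with vehicle, again without overlap. Its log2 fold change was 1.71 (SE 0.55), adjusted p = 0.0512, the smallest of the 9. Gp1ba was at 3.16, 3.56, 3.41 and 4.15 CPM with AP20187 and at 1.49, 1.54, 0.56, 2.13 and 0.762 CPM with vehicle. These groups were also apart, with a fitted log2 difference of 1.46 (SE 0.53), adjusted p = 0.078.

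Gp9 and Gp1bb did not overlap either, with wide errors. Gp9 was at 3.3, 5.07, 3.34 and 3.4 CPM with AP20187 and at 1.43, 0.809, 1.32, 2.86 and 0.641 CPM with vehicle (log2 fold change 1.42, SE 0.79, adjusted p = 0.239). Gp1bb was at 0.657, 2.72, 0.807 and 0.518 CPM with AP20187 and at 0.157, 0.124, 0.12, 0.5 and 0.187 CPM with vehicle (log2 fold change 2.43, SE 1.00, adjusted p = 0.119). Its highest value of all libraries was in naive AP20187 mouse 3, and vehicle mouse 4 nearly reached the AP20187 range. Gp5 was the gene with the smallest fitted difference, at 2.08, 1.52, 2.18 and 2.27 CPM with AP20187 and 2.23, 0.995, 1.36, 2.79 and 2.11 CPM with vehicle. Its fitted log2 difference was 0.08 (SE 0.74), adjusted p = 0.95, although it encodes a chain of the same receptor.

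Ppbp, Clec1b and Gp6 overlapped between the naive groups. For Ppbp the AP20187 mice were at 74.1, 40.9, 29 and 34.5 CPM and the vehicle mice at 17.1, 7.85, 8.57, 35.5 and 9.19 CPM, with vehicle mouse 4 inside the AP20187 range. Its log2 fold change was 1.51 (SE 0.77), adjusted p = 0.198. Clec1b, at 9.34, 8.8, 4.62 and 4.67 CPM with AP20187, overlapped at the same vehicle mouse, whose 5.26 CPM was the highest of 0.722 to 5.26 CPM. The log2 fold change of Clec1b was 1.63 (SE 0.66), adjusted p = 0.116. For Gp6 the values were 2.7, 2.04, 1.08 and 3.66 CPM with AP20187 and 0.895 to 1.81 CPM with vehicle, a fitted log2 difference of 0.99 (SE 0.58), adjusted p = 0.267.

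**Figure D2:**
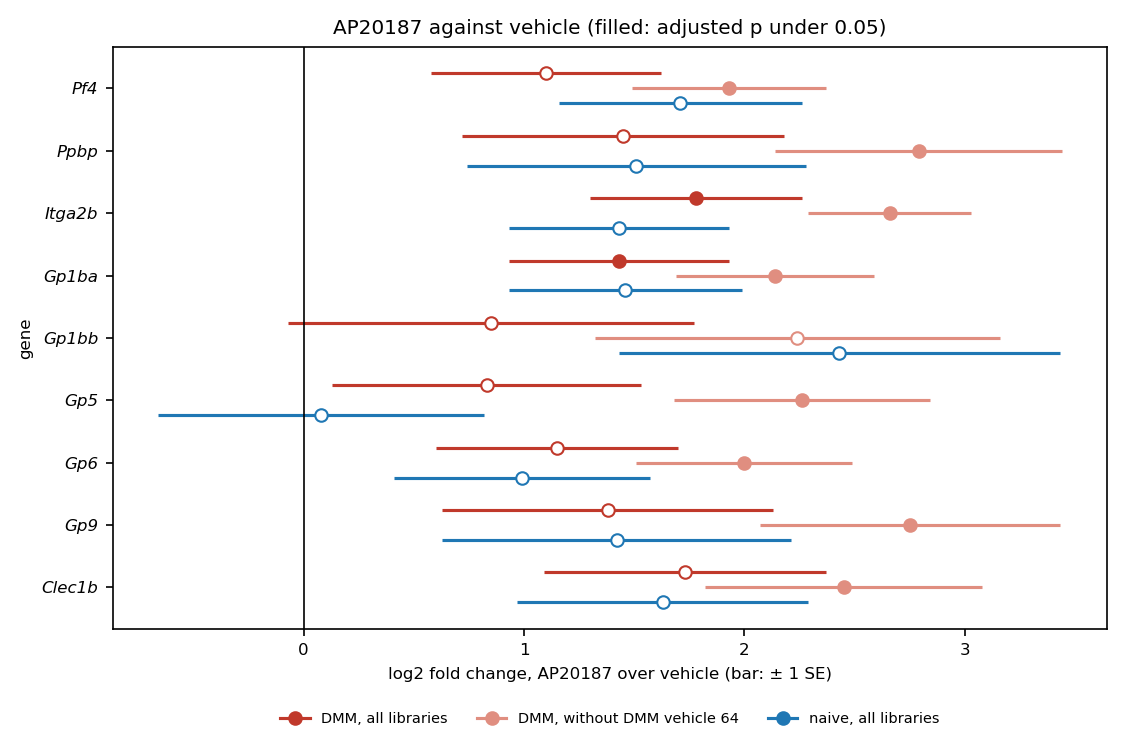
Log2 fold change of AP20187 over vehicle for the 9 genes, with bars of 1 SE, in DMM mice with all libraries, in DMM mice without DMM vehicle 64, and in naive mice. Filled points have an adjusted p under 0.05: 2 genes with all DMM libraries, 8 without vehicle 64 and 0 in naive mice.

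The next question was whether surgery itself, or surgery under the drug, moved these genes. The comparisons share groups with those above, so their values are given side by side and not as separate support. In vehicle mice, DMM was above naive in fitted level for 9 of 9 genes, with a median log2 fold change of 0.61 (0.21 to 1.10), and 0 passed edgeR's quasi-likelihood test, beside 0% of all genes. None of the 9 had an unadjusted p under 0.05, as had 377 of all genes. The direction rested on 1 mouse: without DMM vehicle 64 all 9 log2 fold changes were below 0, from -0.05 for Pf4 to -1.22 for Gp5. With AP20187, DMM was above naive for 8 of 9 genes, with a median of 0.58 (-0.47 to 0.96). Again 0 of 9 passed, beside 0.702% of all genes, and 0 of 9 had an unadjusted p under 0.05, beside 16.7%. The interaction, the AP20187 effect in DMM mice minus that in naive mice, had a median of -0.03 over the 9 genes (-1.58 to 0.74). None passed, beside 0.114% of all genes, and none had an unadjusted p under 0.05, beside 7.67%. A difference in the drug's effect between DMM and naive mice was thus not detected for any of them.

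The 9 genes differed in how widely they varied. Among the 8 genes other than Gp1bb, the highest library was 177 times the lowest for Gp9, 76.4 times for Ppbp, 62.9 times for Gp5 and 47.7 times for Clec1b. The ratio was smaller for Itga2b (17.6), Gp1ba (17.3), Pf4 (15) and Gp6 (13.2). The top was mostly set by the same mice: DMM AP20187 mouse 58 was among the 3 highest libraries for 9 of 9 genes, DMM vehicle 64 for 8 and DMM AP20187 mouse 62 for 6. DMM vehicle 32 was the lowest of all libraries for 6 of 9. Summed over the 9 genes, levels were 25.1 to 84 CPM in naive vehicle, 98.1 to 149 CPM in naive AP20187 and 103 to 337 CPM in DMM AP20187. DMM vehicle mice had 14.6 to 53.6 CPM except mouse 64, which had 203 CPM. On this sum all 9 AP20187 libraries were above all vehicle libraries other than that mouse.

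Pf4 and Ppbp, although neighbours in the genome and both alpha granule chemokines, did not keep a fixed ratio. Ppbp had 2.03 to 4.21 counts for each Pf4 count in DMM AP20187 mice, 1.49 to 3.17 in naive AP20187 mice and 0.843 to 4.08 in naive vehicle mice. The lowest ratio was 0.402, in DMM vehicle 32, the library with the lowest sum of the 9 genes. There Pf4 made up 35.7% of the counts of the 9 genes and Ppbp 14.4%, against 11.3% and 47.5% in DMM AP20187 mouse 58. Ppbp exceeded Pf4 in counts in every library but DMM vehicle 32 and naive vehicle 3.

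**Figure D3:**
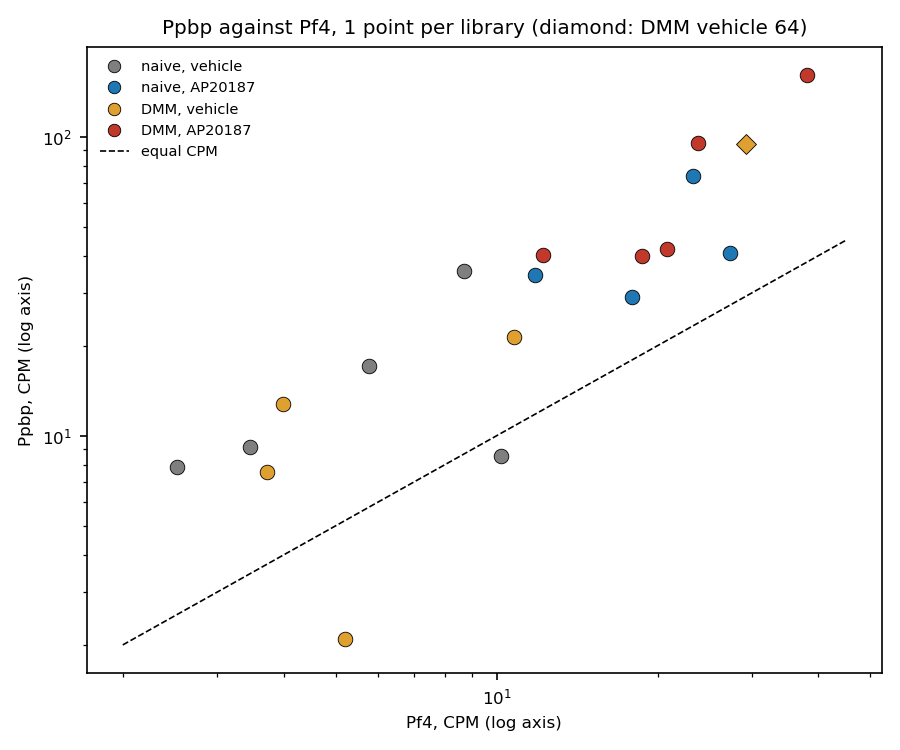
CPM of Ppbp against CPM of Pf4 (log axes), 1 point a library, coloured by group, with DMM vehicle 64 as a diamond and a dashed line of equal CPM. All libraries lie above the line except DMM vehicle 32, with a Ppbp to Pf4 count ratio of 0.402, and naive vehicle 3, with 0.843.

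Pf4 was set beside 3 macrophage genes because tissue macrophages can transcribe it. Lyve1, a hyaluronan receptor of perivascular macrophages and lymphatic vessels, rose with AP20187 in DMM mice (log2 fold change 1.53, SE 0.31, adjusted p = 0.00286) and in naive mice (1.47, SE 0.32, adjusted p = 0.00814). Mrc1, the mannose receptor CD206, rose in DMM mice (1.45, SE 0.43, adjusted p = 0.023, a call kept in 15 of 19 fits with 1 library left out), and in naive mice differed by 1.20 on the log2 scale (SE 0.45, adjusted p = 0.0891). Csf1r, the receptor whose promoter drives the transgene, had log2 fold changes of -0.02 (SE 0.46, adjusted p = 0.982) and 0.45 (SE 0.48, adjusted p = 0.554). Of 12 tissue macrophage markers, 3 rose and 0 fell in each of the DMM and naive comparisons, beside 11.3% and 8.61% of all genes that rose. Without DMM vehicle 64, 8 rose in DMM mice and 6 in naive mice, beside 34% and 14.1% of all genes that passed in either direction. Their sum was 149 to 668 CPM in naive vehicle, 706 to 1150 CPM in naive AP20187, 232 to 874 CPM in DMM vehicle and 476 to 1507 CPM in DMM AP20187. The part of macrophage transcripts in the Pf4 values was not tested.

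Likeness over the 19 libraries was described for each gene by the root mean square difference of centred log2 CPM, ranked over 14481 genes. The libraries share their groups and DMM vehicle 64, so this is a description. For Ppbp, the nearest genes were Clec1b at 0.46, Gp9 at 0.54 and Alox12, the platelet 12-lipoxygenase, at 0.58. Gp9 had Ppbp, Clec1b and Alox12 as its nearest 3, and Gp1ba had Itga2b at 0.51 and Gp6 at 0.55 before Rexo5. Gp6 was nearest to Itgb3, the β3 partner of integrin αIIb, at 0.39, and to Cxcl14 and Cd226. Clec1b was nearest to Il2rg, Dtl and Ppbp. Itga2b was nearest to Cxcl12 at 0.33, Adam8 and Prkd2, and Pf4 to Lair1 at 0.33, Tnfaip8l2 and Eif4ebp1, so for these 2 genes and Gp6 none of the nearest 3 was among the 9. Among the genes described here, Pf4 was closest to Itga2b, at 0.55. Gp1bb and Gp5 had the most distant neighbours, at 0.62 (Alox12) and 0.73 (Slamf1).

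A wider list held 59 other genes of megakaryocytes and platelets, all of which were tested. With AP20187, 25 rose and 3 fell in DMM mice, with a median log2 fold change of 0.98 against -0.10 over all genes, beside 11.3% of all genes that rose. In naive mice 20 rose and 0 fell, with a median of 1.02 against -0.07, beside 8.61% of all genes that rose. Without DMM vehicle 64 the counts were 35 and 4 in DMM mice, beside 34% of all genes that passed in either direction, and 24 and 3 in naive mice, beside 14.1%. In DMM mice restricted to vehicle 63 and 64 they were 3 and 0, beside 4.73% of all genes. In naive mice, where 20 of the list and 11.2% of all genes passed, leaving out 1 of the 9 naive mice gave 9 to 25. The count was 9 without AP20187 mouse 3 (4.24% of all genes), 11 without AP20187 mouse 1 (5.07%) or vehicle mouse 2 (5.69%), and 13 without vehicle mouse 1 (6.03%) or 5 (6.91%). It was 20 without vehicle mouse 3 (10.6%), 22 without AP20187 mouse 4 (10.9%), 24 without vehicle mouse 4 (12.3%) and 25 without AP20187 mouse 5 (14.7%). None of the 59 passed in the other 3 contrasts.

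By role, the largest share was in signalling and shape, where 10 of 12 rose in DMM mice (12 without DMM vehicle 64) and 9 of 12 in naive mice (11 without it). Beside the counts by role and by marker list stand 11.3% of all genes that rose in DMM mice and 8.61% in naive mice. Without DMM vehicle 64, 34% and 14.1% of all genes passed in either direction. Vav1, a guanine nucleotide exchange factor, rose from 19.4 ± 18.7 to 104 ± 31.5 CPM in DMM mice (SD, n = 5 and n = 5), which is 2.43 on the log2 scale (adjusted p = 0.00446). Lcp2, the adaptor SLP-76, rose in naive mice by 2.13 on the log2 scale (adjusted p = 0.00692), from 11.3 ± 3.82 to 49.4 ± 22.9 CPM. Myh9, non-muscle myosin IIA, rose in DMM mice from 345 ± 86.5 to 979 ± 234 CPM, or 1.51 on the log2 scale (adjusted p = 6.50e-04). These genes are used by leukocytes in general and are not particular to platelets.

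Of 15 genes of granule cargo and granule formation, 7 rose and 1 fell in DMM mice and 4 rose in naive mice. Without DMM vehicle 64, 11 rose and 1 fell in DMM mice and 6 rose and 1 fell in naive mice. Selp, the adhesion protein P-selectin of platelet granules and endothelium, had the smallest adjusted p of the list in both comparisons. It stood at 2.84 ± 1.61 CPM with vehicle and 62.6 ± 21 CPM with AP20187 in DMM mice (SD, n = 5 and n = 5), and at 2.4 ± 2.41 (n = 5) and 117 ± 32.8 CPM (n = 4) in naive mice. The log2 fold changes were 4.46 (adjusted p = 6.29e-05) and 5.61 (adjusted p = 2.92e-05). Of 7 endothelial markers, 2 rose in DMM mice, with or without DMM vehicle 64, and 1 in naive mice (3 without it), with sums of 82.5 to 183 CPM in DMM vehicle and 165 to 300 CPM in DMM AP20187. In naive mice the endothelial sums were 77.5 to 340 CPM with vehicle and 217 to 467 CPM with AP20187. The part of endothelial transcripts in Selp was not tested.

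Among 15 receptors and adhesion genes, 4 rose and 1 fell in DMM mice (6 and 2 without DMM vehicle 64) and 3 rose in naive mice (3 rose and 2 fell without it). Esam, an adhesion molecule of endothelium and platelets, rose in naive mice from 11 ± 3.75 to 26.7 ± 6.92 CPM, or 1.28 on the log2 scale (adjusted p = 0.00289). Of the 7 ligands and receptors that meet products of the 9 genes, 2 rose in both comparisons, with or without DMM vehicle 64: Cxcr2, a receptor for chemokines cut from the Ppbp product, and Pdpn, the ligand of CLEC-2. Cxcr2 rose by log2 fold changes of 2.79 in DMM mice (adjusted p = 0.00284) and 2.96 in naive mice (adjusted p = 0.00418). It is also a neutrophil marker, and 7 of 10 neutrophil markers rose in DMM mice (9 without DMM vehicle 64) and 8 of 10 in naive mice (9 without it). Pdpn, singled out after its values were seen, had log2 fold changes of 0.98 in DMM mice (adjusted p = 0.0466) and 1.55 in naive mice (adjusted p = 0.0121). With 1 library left out at a time, its call held in 8 of 19 fits in DMM mice and 18 of 19 in naive mice.

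Of 10 transcription factors, 2 rose and 1 fell in DMM mice (4 and 1 without DMM vehicle 64) and 2 rose in naive mice. Over all genes, 23.8% passed in either direction in DMM mice (34% without that library) and 11.2% in naive mice. With all libraries, both factors that rose in each comparison were Nfe2 and Fli1, and the factor that fell was Mef2c. These factors were named after their values were seen. With 1 library left out at a time, the Nfe2 call held in 12 of 19 fits in DMM mice and 14 of 19 in naive mice, and the Fli1 call in 19 and 16. A further 4 genes of the list were singled out after their values were seen, and their values are those of DMM mice. Tubb1, the platelet β-tubulin, had a fitted log2 difference of 1.82 (adjusted p = 0.0521) and Treml1, an alpha granule receptor, of 2.07 (adjusted p = 0.0797). Without DMM vehicle 64 both passed, with adjusted p of 0.00176 and 0.00389. Gata1 and Gfi1b, which megakaryocytes share with erythroid cells, had log2 fold changes of -0.28 (adjusted p = 0.791) and -0.36 (adjusted p = 0.79), and did not pass without that library either (adjusted p = 0.468 and 0.759).

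Markers of several other blood cell types moved with the same groups. Beside the counts that follow, 23.8% of all genes passed in either direction in DMM mice (34% without DMM vehicle 64) and 11.2% in naive mice. All 5 granulocyte precursor markers rose with AP20187 in DMM and in naive mice, and their sum was 45.6 to 115 CPM in naive vehicle, 319 to 1690 CPM in naive AP20187, 30.3 to 404 CPM in DMM vehicle and 1222 to 2625 CPM in DMM AP20187. Neutrophil markers summed to 877 to 2406 CPM, 8047 to 27786 CPM, 418 to 8018 CPM and 16684 to 28448 CPM in the same order of groups. In contrast, 0 of 12 erythroid markers rose, and 5 fell in DMM mice (1 without DMM vehicle 64) and 0 in naive mice. Erythroid sums were 3358 to 13395 CPM, 1971 to 4331 CPM, 1604 to 26815 CPM and 1315 to 5284 CPM. Of 6 early B lineage markers, 4 fell in both comparisons, with sums of 5.46 to 15.6 CPM, 0.726 to 1.17 CPM, 2.31 to 35.5 CPM and 0.556 to 1.73 CPM. Rag2 had 0 counts in every AP20187 library and Igll1 in every naive AP20187 library. The early B and granulocyte precursor counts in DMM mice were the same without DMM vehicle 64. Of 8 mast cell and basophil markers, 1 rose and 1 fell in DMM mice, near the 23.8% of all genes. Of these markers, 3 rose and 1 fell there without DMM vehicle 64, and 3 rose and 0 fell in naive mice. Their sums, 99.3 to 136 CPM, 115 to 163 CPM, 103 to 179 CPM and 93.2 to 208 CPM, overlapped between all groups. Of 6 stem and progenitor markers, 0 rose and 2 fell in DMM mice (3 without DMM vehicle 64), and none passed in naive mice, with sums of 208 to 306 CPM, 210 to 229 CPM, 214 to 245 CPM and 155 to 216 CPM. The fitted differences of the 9 platelet genes, with median log2 fold changes of 1.38 in DMM and 1.46 in naive mice, had the direction of several lists. Those medians were 3.65 and 3.57 for granulocyte precursor and 2.87 and 3.35 for neutrophil markers. They were 1.30 and 1.40 for tissue macrophage, 0.76 and 1.11 for endothelial, and 0.47 and 1.37 for mast cell and basophil markers. DMM vehicle 64 had the highest sum of its group in the platelet, granulocyte precursor, neutrophil, erythroid and early B lists. It was also the highest of its group in tissue macrophage (874 CPM), mast cell and basophil (179 CPM), stem and progenitor (245 CPM) and endothelial (183 CPM) markers. Among all 19 libraries it ranked 9 for granulocyte precursor and 10 for neutrophil markers, counted from the highest. The part of these cells in the platelet gene values was not tested.

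**Figure D4:**
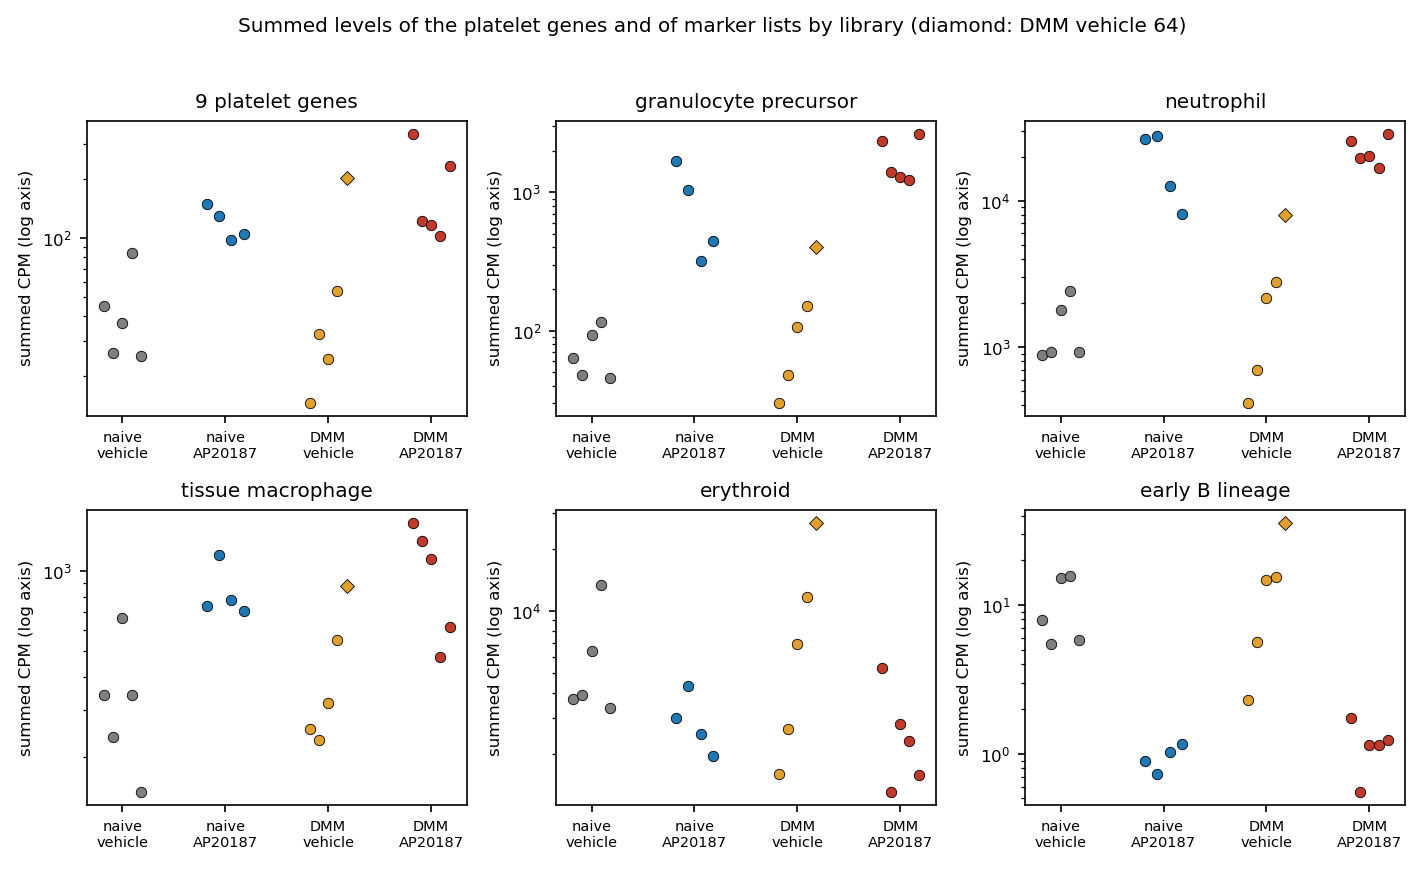
Summed CPM (log axis) of the 9 platelet genes and of 5 marker lists in each library, by group, with DMM vehicle 64 as a diamond. Platelet, granulocyte precursor and neutrophil sums are high in AP20187 libraries, early B lineage sums are low there, and vehicle 64 is the highest of its group in every panel, at 203 CPM for the platelet genes and 26815 CPM for the erythroid list.

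Of 9 sensory neuron markers, 4 fell with AP20187 in DMM mice (7 without DMM vehicle 64) and 0 passed in naive mice (1 fell without it). Over all genes, 23.8% passed in either direction in DMM mice (34% without that library) and 11.2% in naive mice (14.1%). The sum of the neuron markers was 3137 to 7027 CPM in DMM vehicle, with mouse 64 the lowest, and 1222 to 3615 CPM in DMM AP20187. In naive mice it was 4494 to 7501 CPM with vehicle and 1329 to 5273 CPM with AP20187, where mouse 3 was the lowest and mouse 5 the highest. Within that AP20187 group Pf4, Gp1bb and Gp9 were highest in mouse 3, and Ppbp and Clec1b in mouse 1. Itga2b, Gp1ba, Gp5 and Gp6 were highest in mouse 5. The part of the neuron share in the platelet gene values was not tested.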

How the data were processed

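Per the labels' protocols, stranded poly(A) libraries were made from pooled ganglia of single mice. The submitters' processing notes name cutadapt, HISAT2, StringTie and GRCm39, without versions. The strand setting and annotation version are not given in the sources used here. Counts were deposited as whole numbers for each gene, without normalization, and FPKM values deposited beside them scale fragments to gene length and library size. Entries without a gene name (0.414% to 1.72% of counts) were left out.

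The test on counts was that of edgeR 4.0.16 under R 4.3.3 (quasi-likelihood F test, TMM, filterByExpr with minimum count 10, 22778 genes, 15 residual degrees of freedom) in 1 model of the 4 groups and 19 libraries, with 5 contrasts, two-sided. P-values were adjusted by Benjamini-Hochberg over the 22778 genes of each contrast, and 0.05 was the threshold. CPM use TMM library sizes. The floor of detection was 3 counts in a library, which covers counting error only. Alternatives were DESeq2 1.42.0, limma 3.58.1 with voom quality weights, limma on log2(FPKM + 1) and log2(FPKM + 0.1), other scalings and filters, libraries left out and a block by mouse number. On simulated counts of 22032 genes for the DMM drug comparison, 24% of genes changed 2-fold and 77% changed 4-fold were recovered.

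All 9 genes were named in every contrast. Of the wider list, the up to 4 genes of smallest adjusted p per contrast whose mean in some group reached 1 CPM were named, and for likeness the nearest 3 genes. Nfe2, Fli1, Mef2c, Pdpn, Tubb1, Treml1, Gata1 and Gfi1b of that list were named outside this rule, after their values were seen. The genes, lists and tests were chosen with earlier results of these data known. The closest pair of libraries had equal counts in 0.907% of genes with at least 20 counts, so none was a duplicate. Each library is a separate mouse.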

Additional observations from a re-analysis of the deposited data

Results flagged for a closer look

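Within each group of 4 or 5 mice, the highest or lowest mouse was compared with the rest by its gap to the nearest mouse over the group's range. The gap was taken on CPM and not on a log scale. Of 36 groups tested (9 genes in 4 groups), 9 had a mouse beyond the 95% critical value. A rate of about 1 in 20 groups by chance holds for normally spread values only. CPM spanned up to 121-fold within a group (Gp9 in DMM vehicle), so the flags are a description and are not set against that rate. Of the 9 flagged mice, 6 were DMM vehicle 64. It had 29.3 CPM of Pf4 (others 3.72 to 10.8), 94.4 CPM of Ppbp (others 2.1 to 21.4), 45.2 CPM of Itga2b (others 5.13 to 12.2), 7.76 CPM of Gp5 (others 0.123 to 1.51), 5.05 CPM of Gp6 (others 0.617 to 1.31) and 7.48 CPM of Gp9 (others 0.0617 to 1.71). Naive AP20187 mouse 3 stood apart with 2.72 CPM of Gp1bb (others 0.518 to 0.807) and 5.07 CPM of Gp9 (others 3.3 to 3.4). Naive vehicle mouse 4 stood apart with 0.5 CPM of Gp1bb (others 0.12 to 0.187). The genes share libraries, so these are not 9 separate events.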

How the results depend on the processing

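Itga2b in DMM mice passed in 10 of 11 alternatives besides leaving out single libraries, and Gp1ba in 7 of 11. In DMM mice with AP20187 the number of the 9 genes that passed was 2, beside 23.8% of all genes. It moved to 1 with library size scaling (24.7% of all genes), without the filter on low counts (11.3%), or with only the 2 groups fitted (19.8%). It moved to 3 with DESeq2 (30.9%), to 6 with limma on log2(FPKM + 1) (28.8%) or log2(FPKM + 0.1) (27.9%), to 9 with voom quality weights (46.9%), to 9 with vehicle mice 32 to 34 (36.3%) and to 0 with vehicle mice 63 and 64 (4.73%). Leaving out 1 library at a time gave 1 to 8. In naive mice the number was 0, beside 11.2% of all genes, and it was 1 with DESeq2 size factors (12.1%) or either FPKM scale (19.3% and 19.7%), 5 with only the 2 groups (13%), 7 with voom weights (19.9%), 3 with DESeq2 (19.1%), and 0 to 3 with 1 library left out. The number was 0 in the other 3 contrasts under every alternative run. The cause of these moves was not tested. For the interaction, 60 of 261 log2 values of the 9 genes under alternatives changed sign and 0 passed. Fitting only the groups of a contrast does not apply to it, since it uses all 4.

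The number of the wider list that passed was 28 in DMM mice, and was 44 with voom weights, 3 with vehicle mice 63 and 64 and 21 to 39 with 1 library left out. In naive mice it was 20, and was 36 with voom weights and 9 to 27 with 1 library left out, with 9 without AP20187 mouse 3, 11 without AP20187 mouse 1 or vehicle mouse 2, and 13 without vehicle mouse 1 or 5. For DMM against naive it was 7 with vehicle mice 63 and 64, and under AP20187 it was 5 with voom weights and 1 with DESeq2 or any FPKM scale, filtered or not. Counts over this list under alternatives were added after seeing the data. Over all genes, the share that passed ran from 4.73% (vehicle mice 63 and 64) to 46.9% (voom weights) in DMM mice, and from 4.24% (without naive AP20187 mouse 3) to 19.9% (voom weights) in naive mice.

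Mouse numbers 1, 3, 4 and 5 occur in both naive groups, but deviations of same-numbered mice correlated at 0.02, 0.30, -0.08 and 0.18, and 1 of 4 correlated best with its own number, so they share only a number. The replicate block by mouse number passed 2 of the 9 genes in naive mice (Pf4 at 1.59, adjusted p = 0.0124, and Itga2b at 1.51, adjusted p = 0.0323), with Gp5 at -0.03, and 2310 of all genes (11.1%) against 2548 (11.2%).

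Some log2 fold changes changed sign, all in comparisons that did not pass, and the cause was not tested. For AP20187 in DMM mice against vehicle mice 63 and 64, Gp1bb was at -0.42 and Gp5 at -0.21. For AP20187 in naive mice, Gp5 was at -0.03 and -0.02 on log2(FPKM + 1) and log2(FPKM + 0.1), -0.03 without the FPKM filter, and -0.08 to 0.26 with 1 library left out. For DMM against naive with vehicle, using mice 32 to 34 gave -0.51 for Pf4, -1.07 for Ppbp, -0.84 for Itga2b, -0.05 for Gp1ba, -2.56 for Gp1bb, -1.47 for Gp5, -0.41 for Gp6, -1.39 for Gp9 and -0.88 for Clec1b. Voom weights gave -0.66 for Ppbp, -0.44 for Itga2b, -0.08 for Gp1ba, -1.50 for Gp1bb, -1.68 for Gp5, -0.23 for Gp6, -1.02 for Gp9 and -0.14 for Clec1b. On log2(FPKM + 0.1) Itga2b was at -0.05, Gp5 at -0.56 and Gp9 at -0.27, and on log2(FPKM + 1) Gp5 was at -0.08 with or without the filter. Leaving out 1 library gave -0.05 to 1.05 for Pf4, -0.51 to 1.37 for Ppbp, -0.63 to 0.58 for Itga2b, -0.09 to 0.86 for Gp1ba, -0.29 to 1.66 for Gp1bb, -1.22 to 0.51 for Gp5, -0.25 to 0.81 for Gp6, -0.76 to 1.04 for Gp9 and -0.38 to 0.94 for Clec1b. For DMM against naive with AP20187, Gp9 was at -0.06 with voom weights, and leaving out 1 library gave -0.09 to 0.36 for Pf4 and -0.96 to 0.34 for Gp1bb.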
